A study of Mus musculus with 24 samples.

Results

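The 37 genes described here copy the genome in S phase or supply its deoxynucleotides. They were taken by symbol from the 15667 genes listed for the uninjected hearts and the 15327 listed for the injected hearts, and all 37 were listed in both sets. By role they are 4 origin licensing genes (*Orc1*, *Orc6*, *Cdc6*, *Cdt1*), 6 subunits of the MCM helicase (*Mcm2* to *Mcm7*) and 6 helicase activation genes (*Mcm10*, *Cdc45*, *Gins1* to *Gins4*). A further 6 encode polymerase and primase subunits (*Pola1*, *Pola2*, *Prim1*, *Prim2*, *Pold1*, *Pole*), 6 the sliding clamp and its loader (*Pcna*, *Rfc1* to *Rfc5*) and 3 the single-strand DNA binding complex (*Rpa1* to *Rpa3*). The last 2 roles are Okazaki fragment maturation (*Fen1*, *Lig1*) and nucleotide supply (*Rrm1*, *Rrm2*, *Tyms*, *Tk1*).

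Before S phase the origin recognition complex, CDC6 and CDT1 load the MCM ring onto DNA, and at its start CDC45 and the GINS complex turn the ring into an active helicase. Primase and the polymerases then copy the opened strands, held to DNA by the PCNA clamp that replication factor C loads, while replication protein A covers single strands and FEN1 and DNA ligase 1 join the lagging-strand pieces. Most of these genes are transcribed as cells enter the cycle, many through E2F factors, and in the mouse heart their level falls after birth as cardiomyocytes stop dividing.

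RNA came from mouse hearts at postnatal day 7.5, in 24 libraries of 6 groups with 4 libraries each. Xinβ (*Xirp2*) is a protein of the intercalated disc, and the Xinβ KO mice carry a germline deletion in which a LacZ and neomycin resistance cassette replaces parts of 2 exons. Of the groups, 2 were uninjected Xinβ KO and WT hearts, sequenced with 50-bp reads. The other 4 were KO and WT hearts of mice injected at postnatal day 1 with AAV9 that carried GFP or aYAP, a human YAP made more active by replacing with alanine a serine at which Hippo signalling inhibits it, and were sequenced with 150-bp reads. These groups are written WT/GFP, KO/GFP, WT/aYAP and KO/aYAP. All mice were on the C57BL6 background and, per the study's methods, of both sexes with littermate controls. The transgenes ran from a chicken cardiac troponin T promoter, which is active in cardiomyocytes, while the RNA was from whole tissue, labelled as heart apex and given as cardiac ventricles in the study's methods. The uninjected and the injected hearts differed in injection, read length and normalisation, and levels were compared only within each set. Per the study's methods they also differed in sequencing facility and in single-end (uninjected) or paired-end (injected) reads.

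*Xirp2* was at 0.291 to 0.692 CPM (reads of a gene scaled to the depth of the library) in the uninjected KO libraries and at 106 to 168 CPM in the WT libraries, and in the injected hearts at 0 to 0.972 CPM in the 8 KO libraries against 56.0 to 149 CPM in the 8 WT libraries. The libraries held 20490875 to 31154155 reads (uninjected) and 15015038 to 19444404 reads (injected) on listed genes. Among the 4 uninjected KO libraries, replicate 4 had the highest value for 27 of the 37 genes, against 25.7% of all 15598 genes tested. Among the 4 KO/GFP libraries, replicate 4 had the lowest value for 31 of the 37 genes (27.8% of all 14597 genes tested) and replicate 3 the highest for 26 (24.8%). Over all genes other libraries stood apart, uninjected KO replicate 1 (chi-square of the reads per degree of freedom 106 to 121 against the other KO libraries, which had at most 43.7 among themselves) and KO/GFP replicate 2 (64.3 to 91.1, and at most 40.3 among the others). The counts below are therefore also given without these libraries. Cell type markers moved with the genotype in the same libraries. The summed level of 7 fibroblast markers was 4342 to 4569 CPM in uninjected WT and 2110 to 3089 CPM in uninjected KO hearts, 3971 to 4649 CPM in WT/GFP, 1960.3 to 3027 CPM in KO/GFP and 4224 to 5197 CPM in KO/aYAP hearts. Neutrophil markers, 4 of 7 listed, summed to 4.65 to 10.2 CPM in uninjected WT, 44.9 to 99.1 CPM in uninjected KO, 5.33 to 11.4 CPM in WT/GFP, 28.9 to 42.5 CPM in KO/GFP and 2.09 to 13.2 CPM in KO/aYAP hearts. Macrophage and other leukocyte markers summed to 64.4 to 78.0, 22.9 to 38.7, 70.0 to 105, 24.7 to 57.7 and 73.1 to 89.7 CPM in the same order of groups. No listed marker of these lists was at 0 in a whole group. In uninjected KO and in KO/GFP hearts respectively, 4 and 5 of the 7 fibroblast markers fell, as did 4 of 6 and 5 of 7 tested leukocyte markers, 1 and 3 of 8 endothelial markers, 1 and 1 of 8 smooth muscle and pericyte markers and 0 of 6 and 5 of 7 erythroid markers, while 2 and 2 of 10 cardiomyocyte markers and 4 of 4 and 2 of 3 tested neutrophil markers rose. At an adjusted p under 0.05 in limma, 3.46% and 7.22% of all genes were called lower in these comparisons, and 3.23% and 6.43% higher. The part of these cell types in the results below was not tested.

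Bases upstream of the start of 3 of the genes are shown, since 12 of the 30 genes with a promoter window in the RefSeq table (GRCm38.p6, 250 bases before to 50 after the start) held an E2F-type run of letters. The letters searched on both strands were TTTCCCGC, TTTGGCGC, TTTCGCGC and TTTGCCGC. The share of 40.0% in these genes compares with 4.6% of the 10603 tested genes with a window and 2.6% of all 27025 genes with one. The shorter letters TTTGAA, of the kind found in promoters of mitosis genes, were in 4 of 30 windows (13.3%) and in 14.2% of the windows of tested genes. *Mcm5* and *Mcm6* are shown with their matches in capitals, of which overlapping matches on opposite strands form 1 run. *Rrm2*, whose level changed most in the injected KO hearts, is shown as a gene with no such letters.
Mcm5, chr8:75109259-75109508, plus strand of GRCm38.p6: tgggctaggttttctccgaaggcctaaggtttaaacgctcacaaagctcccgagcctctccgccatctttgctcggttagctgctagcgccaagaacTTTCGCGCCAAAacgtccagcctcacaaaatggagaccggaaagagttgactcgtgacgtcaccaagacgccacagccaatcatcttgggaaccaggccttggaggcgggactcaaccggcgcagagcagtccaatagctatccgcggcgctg
Mcm6, chr1:128359706-128359955, minus strand of GRCm38.p6: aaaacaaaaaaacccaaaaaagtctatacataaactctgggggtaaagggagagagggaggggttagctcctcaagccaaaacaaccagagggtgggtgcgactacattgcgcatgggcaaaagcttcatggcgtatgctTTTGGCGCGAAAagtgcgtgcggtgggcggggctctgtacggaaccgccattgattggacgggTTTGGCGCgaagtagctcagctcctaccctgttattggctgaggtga
Rrm2, chr12:24708004-24708240, plus strand of GRCm38.p6: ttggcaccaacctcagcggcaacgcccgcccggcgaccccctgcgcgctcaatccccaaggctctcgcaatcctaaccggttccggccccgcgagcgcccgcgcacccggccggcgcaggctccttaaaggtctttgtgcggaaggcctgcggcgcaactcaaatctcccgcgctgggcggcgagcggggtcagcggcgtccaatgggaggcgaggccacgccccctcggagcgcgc
A match describes letters in this window and not a bound site. The 12 genes with a match had a median log2 fold change of -0.86 in uninjected KO against WT hearts and the 18 without a match had -0.66. In KO/GFP against WT/GFP hearts these medians were -0.59 and -0.46, and in KO/aYAP against KO/GFP hearts 0.58 and 0.38. The genes called numbered 1 of 12 with and 3 of 18 without a match in uninjected hearts, 5 of 12 and 7 of 18 in KO/GFP hearts, and 1 of 12 and 7 of 18 in KO/aYAP against KO/GFP hearts. Over all tested genes with a window, the medians with and without a match were -0.10 and -0.01, -0.07 and -0.01, and 0.06 and 0.01 in the same order. Of these genes, those called in either direction numbered 41 of 478 with and 714 of 9822 without a match in uninjected hearts. They numbered 76 of 485 and 1382 of 9951 in KO/GFP hearts, and 61 of 485 and 1469 of 9951 in KO/aYAP against KO/GFP hearts.

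In uninjected KO hearts 4 of the 37 replication genes fell by the test, and most of the others had lower means than in WT. The log2 fold change, on the log2(CPM + 1) scale, was below 0 for 36 of the 37, with a median of -0.65 against 0.00 over the 15598 genes tested. At an adjusted p-value under 0.05 (limma, Benjamini-Hochberg over all genes tested), 4 fell, *Cdc6* (-1.58), *Rrm2* (-1.57), *Prim1* (-1.12) and *Rfc4* (-0.67), and none rose, where 3.46% of all genes were called lower. At an unadjusted p under 0.05 the count was 27, against 22.5% of all genes. For 14 of the 37 genes every KO library was below every WT library, as for 8.43% of all genes. Per role, the median log2 fold change ran from -1.10 for the MCM helicase, -0.93 for Okazaki fragment maturation, -0.87 for nucleotide supply and -0.86 for licensing to -0.41 for the clamp and its loader and -0.26 for single-strand DNA binding. In RNA of whole tissue, fewer cells in S phase and less RNA per cell cannot be told apart.

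For the replication genes KO replicate 4 stood apart from the other 3 KO libraries. The median over the 37 genes of the level relative to the WT mean was -0.71, -1.04 and -0.95 (log2) in KO replicates 1 to 3 and -0.06 in replicate 4, while the WT libraries ran from -0.04 to 0.06. KO replicate 2 lay below every WT library for all 37 genes (31.5% of all genes tested), replicate 3 for 35 (32.3%), replicate 1 for 28 (40.5%) and replicate 4 for 16 (28.5%). With replicate 4 left out, 27 of the 37 genes were called lower (7.96% of 15466 genes), among them all 6 MCM subunits and all 4 nucleotide supply genes, and the median was -0.84. Without KO replicate 2 (1.72% of all genes called lower), or without WT replicate 1, 2 or 3, none of the 37 was called in limma, and without KO replicate 3 or WT replicate 4 only *Cdc6* was. The share of all genes called lower was 0.914% to 1.23% without any single WT library and 2.0% without KO replicate 3. Without KO replicate 1, the library farthest from the others over all genes, 6 were called (5.02% of all genes lower), *Cdc6*, *Fen1*, *Gins3*, *Prim1*, *Rfc4* and *Rpa3*. Over 19 mitosis genes the same measure was -1.92, -1.62 and -2.52 in KO replicates 1 to 3 and 0.21 in replicate 4. Fibroblast markers were lower than in WT in replicate 4 as well, at 3089 CPM, and neutrophil markers higher, at 44.9 CPM.

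**Figure D1:**
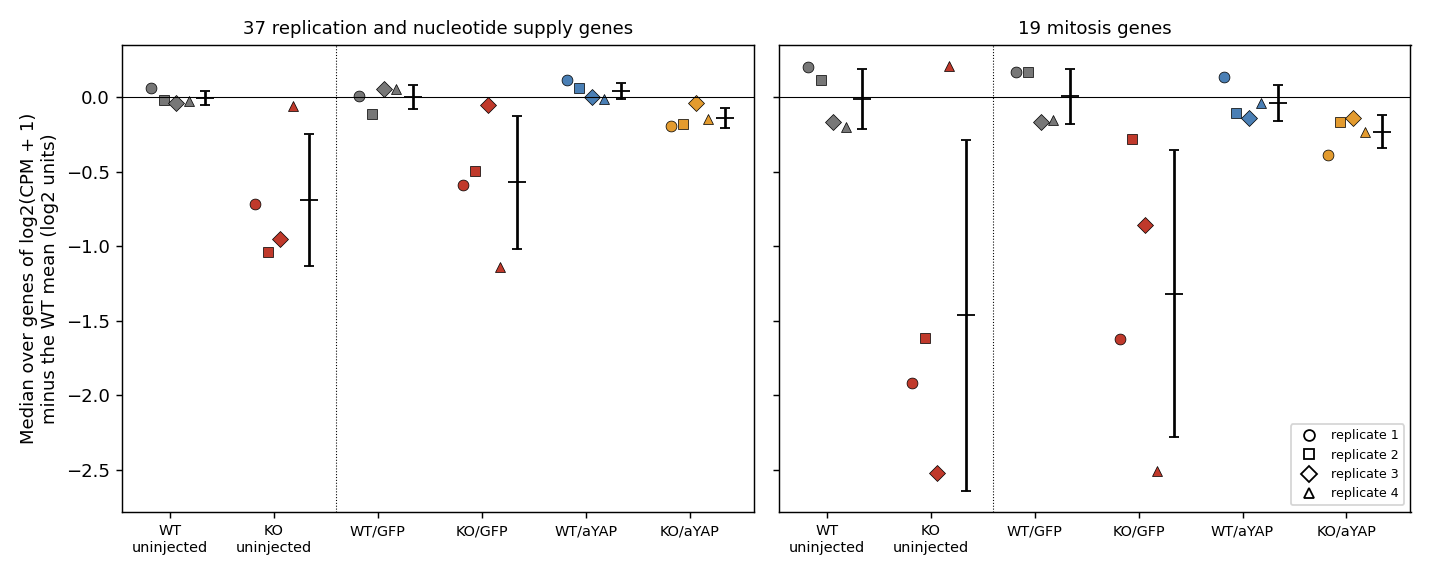
Each point is 1 library, placed at the median over genes of log2(CPM + 1) minus the mean of the WT libraries of its set (uninjected WT left of the dotted line, WT/GFP right of it), for the 37 replication genes and for 19 mitosis genes. Horizontal dashes with bars are the mean and SD of 4 libraries. Uninjected KO replicate 4 and KO/GFP replicate 3 sit at -0.06 for the replication genes, near WT, and the KO/aYAP libraries between -0.19 and -0.04.

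In KO hearts injected with GFP, from separate animals, 13 of the 37 fell. In KO/GFP against WT/GFP hearts the log2 fold change was below 0 for 35 of the 37, with a median of -0.51 (all 14597 genes tested, -0.01), and none rose in limma (7.22% of all genes were called lower). The 13 were *Cdc6*, *Mcm2*, *Mcm4*, *Mcm5*, *Mcm6*, *Mcm7*, *Mcm10*, *Cdc45*, *Pcna*, *Rfc4*, *Lig1*, *Rrm1* and *Rrm2*. At an unadjusted p under 0.05 the count was 26 (27.4% of all genes). For 9 genes the groups did not overlap, as for 7.95% of all genes. The median level against the WT/GFP mean was -0.59, -0.50, -0.06 and -1.14 in KO/GFP replicates 1 to 4 and -0.11 to 0.05 in WT/GFP. Over the mitosis genes it was -1.62, -0.28, -0.86 and -2.51 in KO/GFP replicates 1 to 4, so replicate 3 was below WT/GFP there while it was near WT/GFP for the replication genes. Leaving out replicate 2 raised the count to 17 (10.1% of all genes called lower). Leaving out replicate 3 raised it to 23 (8.41% of 14524 genes called lower), and leaving out replicate 4 lowered it to 8 (4.55% of 14522), *Cdc45*, *Mcm10*, *Mcm2*, *Mcm5*, *Pcna*, *Rfc4*, *Rrm1* and *Rrm2*. With the spread estimated from these 8 libraries alone, 3 were called (*Cdc6*, *Rrm1*, *Rrm2*), and 2.95% of all genes were called lower. Across the 37 genes the changes in uninjected and in GFP-injected hearts, which share no library, had Pearson's r of 0.85 and Spearman's rho of 0.86, and 36 had the same sign. Genes measured in the same libraries are not independent replicates, and no test was made of this relation.

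**Figure D2:**
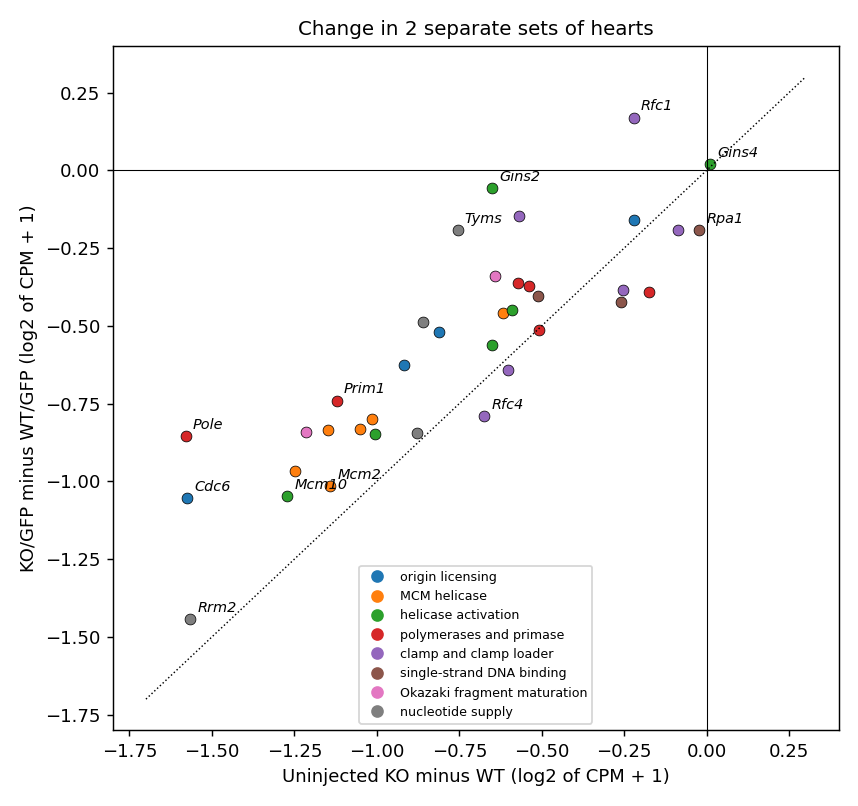
Each point is 1 of the 37 genes, placed by its log2 fold change (of CPM + 1) in uninjected KO against WT hearts and in KO/GFP against WT/GFP hearts, coloured by role, with the dotted line marking equal change. Most points lie in the lower left, with *Rrm2* farthest down and *Gins4* at the origin, and *Rfc1* is the only gene of opposite sign in the 2 sets.

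In KO hearts with aYAP 9 of the 37 replication genes were higher by the test than in KO hearts with GFP. Of the 37, 33 had a positive log2 fold change in KO/aYAP against KO/GFP, with a median of 0.44 (all genes, 0.01), and those that rose in limma were *Rrm2*, *Mcm2*, *Mcm5*, *Rpa1*, *Mcm4*, *Cdc45*, *Rrm1*, *Rfc4* and *Pcna*, where 7.85% of all genes were called higher. None fell, and 16 had an unadjusted p under 0.05 (29.6% of all genes). In all 37 genes the groups overlapped, while 9.02% of all genes had KO/aYAP libraries wholly above KO/GFP. Without KO/GFP replicate 2 the count was 9 (9.34% of all genes called higher). Without KO/GFP replicate 3, 18 genes were called higher (8.82% of all genes), without replicate 4 there were 5 (5.89%), *Cdc45*, *Mcm5*, *Rpa1*, *Rrm1* and *Rrm2*, and without KO/GFP replicate 1 or any single KO/aYAP library there were 2 to 4, always with *Rrm1* and *Rrm2*, where 5.38% to 6.26% of all genes were called higher. With the spread taken from the 8 libraries of these groups alone, 0 were called while 4.08% of all genes were called higher, so these calls used the spread shared by all 16 injected libraries. The KO/GFP libraries are also in the comparison above, so a low or high KO/GFP library moves both. Cell type markers moved in the same comparison. Of those tested, 5 of 7 fibroblast, 5 of 7 leukocyte, 3 of 8 smooth muscle and pericyte and 2 of 8 endothelial markers rose, while 2 of 3 neutrophil, 2 of 10 cardiomyocyte and 1 of 8 endothelial markers fell and 0 of 7 erythroid markers were called. Smooth muscle and pericyte markers summed to 1310 to 1617 CPM in KO/GFP and 1916 to 2426 CPM in KO/aYAP hearts, without overlap. Among all genes, 7.85% were called higher and 6.92% lower in this comparison. The part of these cell types in the rise was not tested.

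Between KO/aYAP and WT/GFP hearts no replication gene was called, and most values were on the low side. The median change was -0.15, with 31 of 37 genes negative, 0 called in limma and 2 at an unadjusted p under 0.05 (6.08% of all genes), *Mcm7* at -0.27 and *Rpa1* at 0.64. Over all genes 3 were called (0.0206%). For 5 genes every KO/aYAP library was nonetheless below every WT/GFP library, as for 2.32% of all genes. They were *Cdc6*, *Lig1*, *Rrm1*, *Rrm2* and *Tk1*. *Rrm2* had a 95% interval of -0.93 to 0.27 around its change of -0.33, which holds both no difference and a fall. Erythroid markers were lower in the same comparison, summing to 1866 to 2061 CPM in KO/aYAP and 3393 to 8425 CPM in WT/GFP hearts, with a median change of -1.11 over 7 markers, 6 of them without overlap and 6 at an unadjusted p under 0.05, and 0 called. No marker of the other cell types was called there, and the part of the erythroid markers was not tested. Against WT/aYAP hearts the KO/aYAP median was -0.18, with 0 called and 3 at an unadjusted p under 0.05 (*Cdt1*, *Mcm7*, *Rfc3*), against 11.1% of all genes. In that comparison 7 genes did not overlap, all lower (4.72% of all genes), *Cdt1*, *Mcm7*, *Cdc45*, *Pold1*, *Rrm2*, *Tyms* and *Tk1*, and 6 of all genes were called (0.0411%). Erythroid markers were lower there too, at 1866 to 2061 CPM against 2665 to 3884 CPM in WT/aYAP hearts. Their median change was -0.66, with 5 of 7 without overlap, 4 at an unadjusted p under 0.05 and 0 called, and their part was not tested.

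In WT hearts no difference with aYAP was detectable in these genes. The median change in WT/aYAP against WT/GFP was 0.02, with 20 genes positive and 17 negative, 0 called of 37 and of all 14597 genes (0.0%) in limma, and 1 of 37 at an unadjusted p under 0.05, *Cdt1* at 0.48. Over all genes 1011 had an unadjusted p under 0.05 (6.93%), and DESeq2 called 11, none of them among the 37. The 95% interval for *Mcm2* was -0.65 to 0.39 and for *Rrm1* -0.35 to 0.34. The difference between the aYAP effect in KO and in WT hearts was tested as an interaction. Its median was 0.38, with 31 genes positive, 0 called in limma (7.56% of all genes were) and 11 at an unadjusted p under 0.05, where 23.7% of all genes were. Of these, *Mcm2* had the lowest adjusted p (interaction 1.03, SE 0.35, adjusted p = 0.0829), followed by *Rrm1* (0.65, adjusted p = 0.0988). A different response to aYAP in KO and WT hearts was thus not called for these genes. Without KO/GFP replicate 3, 7 were called, *Cdc6*, *Mcm2*, *Mcm4*, *Mcm5*, *Mcm6*, *Rrm1* and *Rrm2* (8.86% of all genes).

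**Figure D3:**
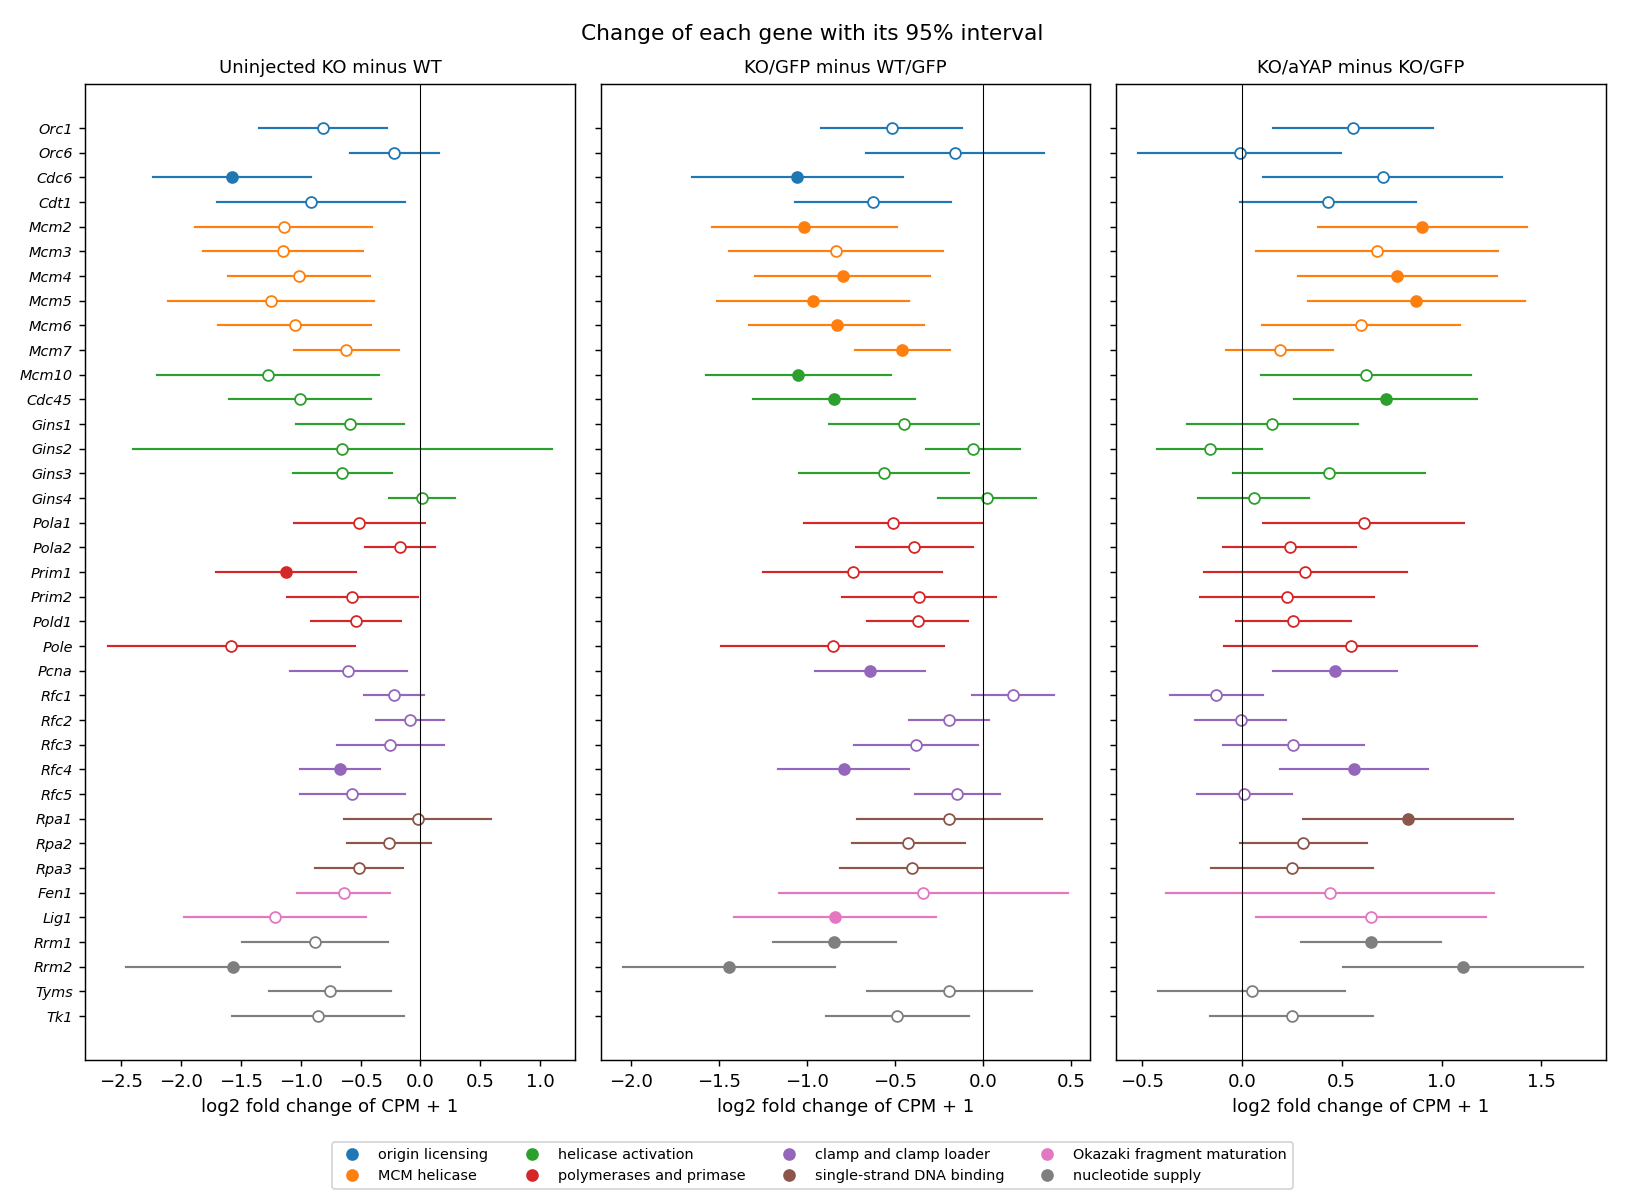
The 3 panels plot, for each of the 37 genes in order of role, the log2 fold change of CPM + 1 (point) with its 95% interval (line) in uninjected KO minus WT, KO/GFP minus WT/GFP and KO/aYAP minus KO/GFP hearts. Filled points had an adjusted p under 0.05 in limma, 4, 13 and 9 genes in the 3 panels, and nearly all points lie left of 0 in the first and the second panel and right of it in the third.

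Origin licensing. CDC6 helps the origin recognition complex to load the MCM ring. *Cdc6* (ENSMUSG00000017499, chromosome 11, 98907801 to 98923940) was at 5.76, 5.42, 5.01 and 5.03 CPM in uninjected WT replicates 1 to 4, while KO replicates 1 to 4 held 0.534, 0.626, 0.899 and 3.21 CPM. The KO libraries were all below the WT libraries, at 24.8% of the WT mean (log2 fold change -1.58, SE 0.29, adjusted p = 0.0152, limma). In the injected hearts it stood at 6.63, 6.30, 7.67 and 6.90 CPM in WT/GFP and 2.05, 3.27, 5.50 and 1.43 CPM in KO/GFP, again without overlap (log2 fold change -1.05, SE 0.28, adjusted p = 0.0206). With aYAP the values were 9.59, 3.74, 4.98 and 4.33 CPM in WT and 5.98, 5.78, 6.12 and 3.32 CPM in KO hearts. The change from KO/GFP to KO/aYAP was 0.71 (adjusted p = 0.105), not called. *Orc1*, the largest subunit of the origin recognition complex, had low values. It measured 1.99, 2.01, 1.70 and 1.24 CPM in uninjected WT and 0.34, 0.264, 0.30 and 1.6 CPM in KO hearts, where replicate 4 alone reached the WT range. The injected values were 2.27, 2.45, 1.63 and 1.75 CPM in WT/GFP, 0.745, 1.11, 2.16 and 0.661 CPM in KO/GFP, 2.59, 2.35, 2.81 and 1.90 CPM in WT/aYAP and 2.37, 1.58, 2.23 and 2.23 CPM in KO/aYAP. The KO/aYAP libraries overlapped both WT groups. *Orc1* had the smallest p of this group for KO/aYAP against KO/GFP (log2 fold change 0.56, SE 0.19, adjusted p = 0.0583) and was not called as reported, but was in limma without the trend. *Cdt1*, which brings MCM to the origin, had changes of -0.92, -0.63 and 0.43 in the 3 comparisons, none called in limma with all libraries. DESeq2 and edgeR's exact test called *Cdt1* lower in KO/GFP hearts. *Orc6*, another subunit of the origin complex, differed from the other 3. It measured 11.2, 8.92, 9.94 and 11.1 CPM in uninjected WT and 9.33, 7.68, 6.74 and 11.5 CPM in KO hearts, 13.6, 11.9, 12.3 and 8.88 CPM in WT/GFP and 7.64, 13.7, 16.5 and 6.17 CPM in KO/GFP. With aYAP it measured 14.8, 12.4, 10.7 and 11.2 CPM in WT and 9.08, 9.35, 13.9 and 8.98 CPM in KO hearts. The groups overlapped throughout, and the 3 changes were -0.22, -0.16 and -0.01.

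The MCM helicase. The 6 subunits form 1 ring, and all 6 had the same sign in each comparison, with changes of -1.25 (*Mcm5*) to -0.62 (*Mcm7*) in uninjected KO hearts, -1.02 (*Mcm2*) to -0.46 (*Mcm7*) in KO/GFP hearts and 0.19 (*Mcm7*) to 0.90 (*Mcm2*) in KO/aYAP against KO/GFP hearts. *Mcm2* (ENSMUSG00000002870, chromosome 6, 88883474 to 88898780) was at 71.2, 65.9, 69.7 and 62.3 CPM in uninjected WT and 35.2, 17.2, 21.6 and 60.3 CPM in KO hearts. All KO values were lower, replicate 4 by little (log2 fold change -1.14, SE 0.33, adjusted p = 0.0705). In injected hearts *Mcm2* was at 60.0, 53.7, 67.8 and 67.3 CPM in WT/GFP and 29.4, 30.3, 56.6 and 16.1 CPM in KO/GFP, where only replicate 3 lay in the WT range (log2 fold change -1.02, SE 0.25, adjusted p = 0.0124). It measured 59.9, 66.2, 56.9 and 45.0 CPM in WT/aYAP and 51.4, 63.8, 65.8 and 49.7 CPM in KO/aYAP, so that KO/aYAP and WT/aYAP overlapped (log2 fold change 0.90, SE 0.25, adjusted p = 0.0218 for KO/aYAP against KO/GFP). *Mcm3* had the smallest p of the ring in uninjected hearts, at 41.6, 38.8, 39.7 and 46.5 CPM in WT and 20.9, 11.2, 13.3 and 34.7 CPM in KO, without overlap (log2 fold change -1.15, SE 0.30, adjusted p = 0.0527). Its injected values were 40.9, 35.6, 43.2 and 49.0 CPM in WT/GFP, 26.1, 26.0, 42.5 and 9.53 CPM in KO/GFP, 45.6, 42.6, 41.1 and 33.0 CPM in WT/aYAP and 36.3, 42.5, 41.1 and 31.1 CPM in KO/aYAP. The KO/GFP libraries included the lowest values of that set. *Mcm5* and *Mcm6*, whose upstream bases are shown above, were at 46.9, 35.5, 39 and 43.5 CPM and 57.4, 59.9, 66.5 and 63.3 CPM in WT/GFP and 21.3, 25.0, 35.4 and 9.09 CPM and 35.8, 34.6, 61.1 and 18.0 CPM in KO/GFP hearts. Both had KO/GFP replicate 3 in or near the WT range and replicate 4 lowest (adjusted p = 0.0195 and 0.0258), and in KO/aYAP hearts they were at 35.9, 35.3, 44.3 and 38.7 CPM and 54.5, 53.5, 61.0 and 41.9 CPM. None of the 6 passed the adjusted threshold in uninjected hearts in limma as reported, and all 6 had an unadjusted p under 0.05. DESeq2 and edgeR's exact test called *Mcm2*, *Mcm3*, *Mcm4* and *Mcm6* there, and limma after quantile normalisation called *Mcm4*. Without KO replicate 4, *Mcm2* was at -1.47 (adjusted p = 0.00357) and *Mcm3* at -1.45 (adjusted p = 0.00252). In KO/GFP hearts 5 of 6 fell, all but *Mcm3*, and with aYAP *Mcm2*, *Mcm4* and *Mcm5* rose. *Mcm7* shares bases with *Cops6* and *Ap4m1* on the opposite strand.

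Helicase activation. MCM10 and CDC45 take part in turning the loaded ring into a moving helicase. *Mcm10* (ENSMUSG00000026669, chromosome 2, 4989714 to 5012791) was at 6.52, 6.56, 6.39 and 6.84 CPM in uninjected WT and 1.26, 1.19, 1.25 and 7.73 CPM in KO hearts. KO replicates 1 to 3 were far below WT and replicate 4 above every WT library, and the change was -1.27 (adjusted p = 0.10) with it and -1.76 (adjusted p = 1.4e-04) without it. In injected hearts the values were 9.44, 5.08, 7.67 and 6.85 CPM in WT/GFP and 3.04, 3.60, 4.74 and 1.21 CPM in KO/GFP, which did not overlap (log2 fold change -1.05, SE 0.25, adjusted p = 0.0104). With aYAP they were 5.33, 8.02, 5.29 and 6.37 CPM in WT and 4.91, 3.80, 6.18 and 5.55 CPM in KO hearts (log2 fold change 0.62, SE 0.25, adjusted p = 0.103 for KO/aYAP against KO/GFP). *Cdc45* (ENSMUSG00000000028, chromosome 16, 18780447 to 18811987) was at 17.6, 16.5, 14.8 and 13.9 CPM in uninjected WT and 7.58, 6.16, 4.4 and 13.3 CPM in KO hearts, without overlap (log2 fold change -1.0, SE 0.26, adjusted p = 0.0546). It measured 14.4, 13.1, 15.2 and 14.6 CPM in WT/GFP and 7.76, 9.61, 11.5 and 3.53 CPM in KO/GFP, also without overlap (log2 fold change -0.85, SE 0.22, adjusted p = 0.0159). Its aYAP values were 15.1, 16, 14.4 and 14.8 CPM in WT and 13.9, 11.5, 13.7 and 13.3 CPM in KO hearts, the latter above KO/GFP by 0.72 (adjusted p = 0.0349).

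The 4 GINS subunits, which form 1 complex, had unlike values. *Gins1* and *Gins3* had changes of -0.59 and -0.65 in uninjected KO hearts, with no overlap between genotypes, and of -0.45 and -0.56 in KO/GFP hearts, none called in limma with all libraries. DESeq2 and edgeR's exact test called *Gins3* lower in uninjected KO hearts. *Gins4* was at 13.4, 15.6, 14.4 and 15.4 CPM in uninjected WT and 17.7, 13, 13.7 and 15.1 CPM in KO hearts, and the groups overlapped (log2 fold change 0.01, SE 0.12, adjusted p = 0.966). In injected hearts it measured 15.8, 17.6, 20.0 and 16.1 CPM in WT/GFP, 17.4, 22.9, 16.8 and 14.1 CPM in KO/GFP, 19.7, 23.4, 19 and 18.6 CPM in WT/aYAP and 16.5, 19.3, 18.5 and 19 CPM in KO/aYAP. Its 95% interval in KO/GFP against WT/GFP was -0.26 to 0.30, so a fall as large as that of *Cdc45* lay outside it. *Gins2* was at 34.2, 22.8, 32.9 and 34.5 CPM in uninjected WT and 42.7, 1.84, 35.3 and 35.6 CPM in KO hearts. KO replicate 2 was far below every other library and the other 3 KO libraries were above the WT ones. The change was -0.65 with replicate 2 and 0.29 without it, neither called. In injected hearts *Gins2* was at 37.6, 31.5, 32.1 and 26.7 CPM in WT/GFP, 24.6, 37.6, 31.1 and 29.8 CPM in KO/GFP, 31.8, 29.1, 30.2 and 32.2 CPM in WT/aYAP and 25.9, 31.7, 25.8 and 25.6 CPM in KO/aYAP, all in 1 range. An exon of *Gins2* shares 2758 bases with *Gse1* on the opposite strand. The study describes its libraries as strand-specific, and whether strand was used in counting is not given in the sources used here.

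**Figure D4:**
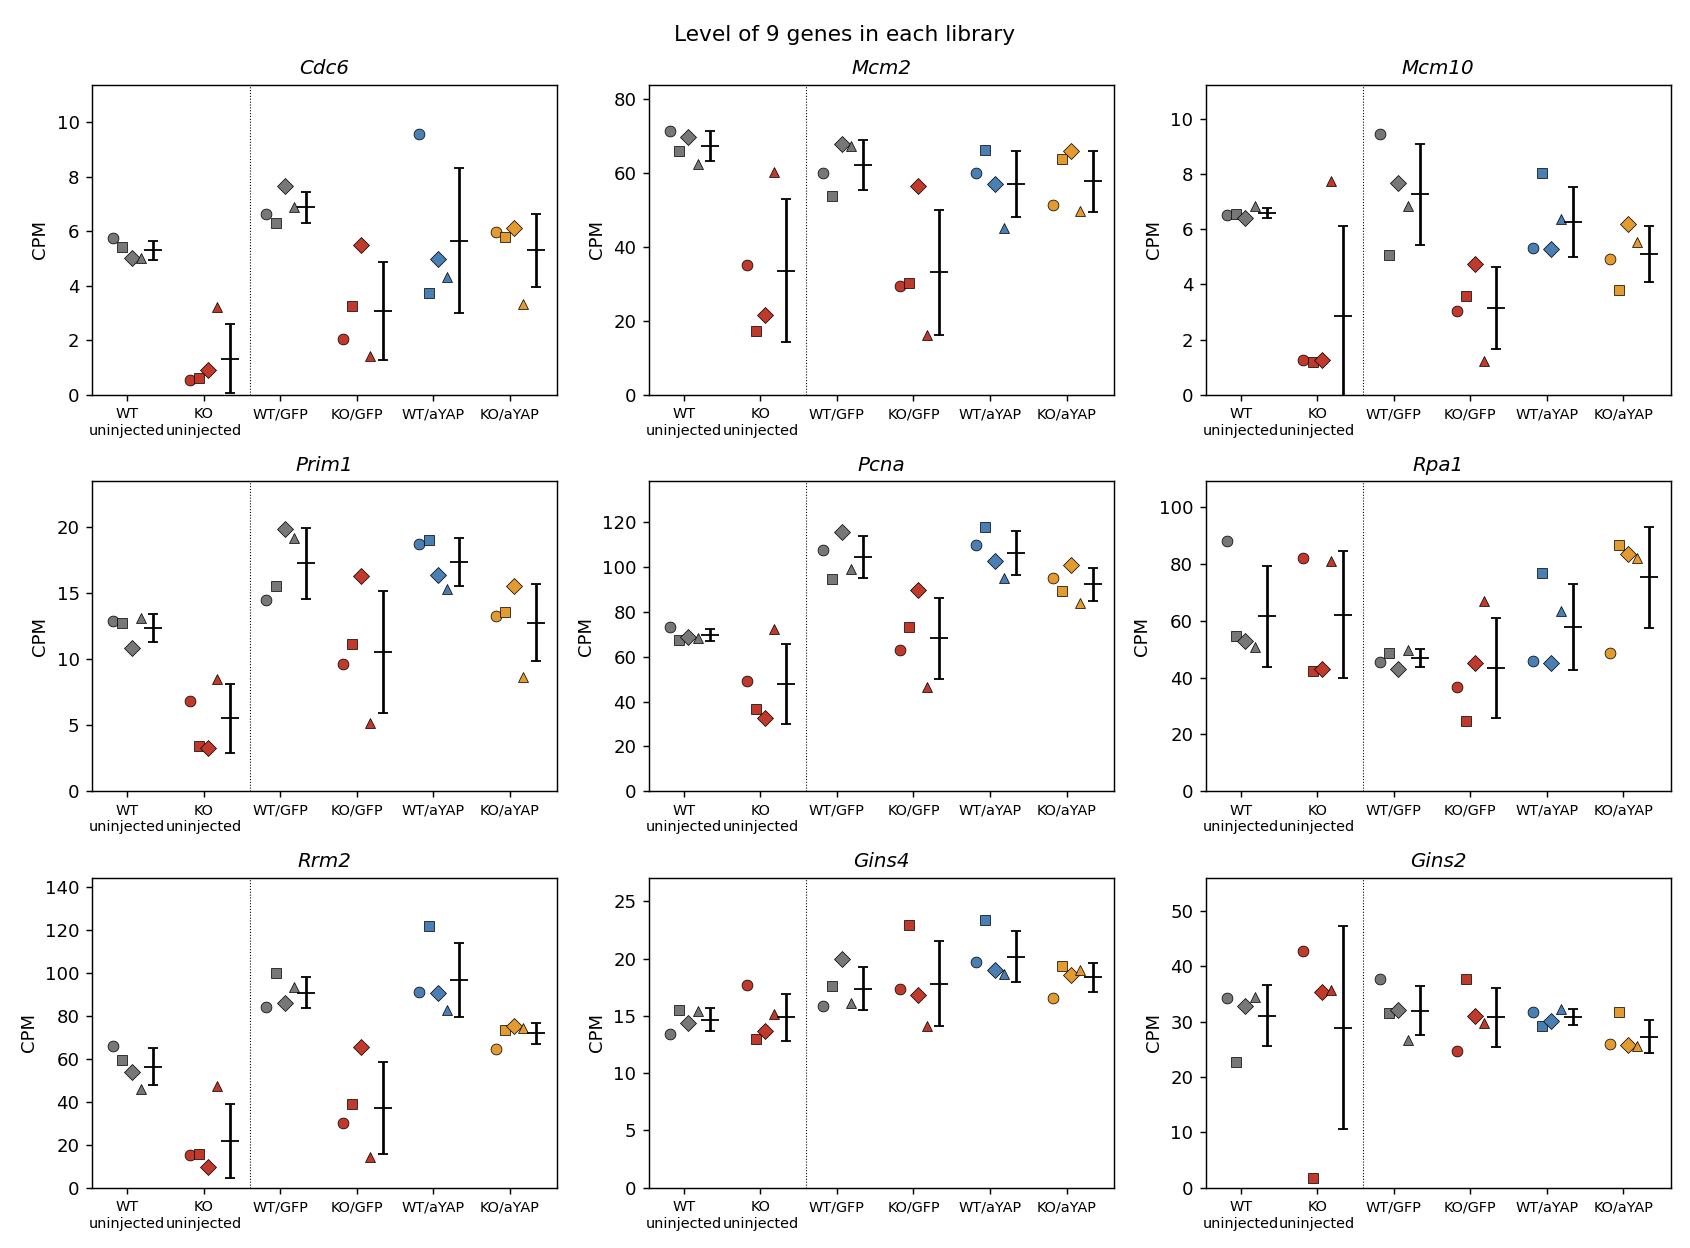
CPM of 9 genes in each of the 24 libraries, with 1 marker shape per replicate number and the mean and SD of 4 libraries as a dash with bars (bars that pass below 0 end at the axis). Of the 4 uninjected KO and the 4 KO/GFP libraries, at least 3 lie below every WT or WT/GFP library for *Cdc6*, *Mcm2*, *Mcm10*, *Prim1*, *Pcna* and *Rrm2*, *Gins4* is flat, *Gins2* has 1 KO library at 1.84 CPM, and *Rpa1* is high in 3 KO/aYAP libraries.

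Polymerases and primase. PRIM1 is the catalytic subunit of primase, which lays the RNA primers. *Prim1* (ENSMUSG00000025395, chromosome 10, 128015168 to 128030037) was at 12.9, 12.7, 10.8 and 13.1 CPM in uninjected WT and 6.85, 3.46, 3.25 and 8.53 CPM in KO hearts, without overlap, at 44.6% of the WT mean (log2 fold change -1.12, SE 0.26, adjusted p = 0.0369). *Prim1* was not called there by edgeR's quasi-likelihood test or with the replicate block. In injected hearts it measured 14.5, 15.5, 19.8 and 19.2 CPM in WT/GFP and 9.62, 11.1, 16.3 and 5.18 CPM in KO/GFP, with KO/GFP replicate 3 in the WT range (log2 fold change -0.74, SE 0.24, adjusted p = 0.0503, just above the threshold). It measured 18.7, 19.1, 16.4 and 15.3 CPM in WT/aYAP and 13.3, 13.6, 15.6 and 8.64 CPM in KO/aYAP, where the change from KO/GFP was 0.32 and not called. *Pola1*, the catalytic subunit of polymerase alpha, had the smallest p of this group for KO/aYAP against KO/GFP (log2 fold change 0.61, SE 0.24, adjusted p = 0.0956). Its values were 15.3, 15.9, 13.1 and 13.2 CPM in uninjected WT and 7.38, 8.07, 8.49 and 17.7 CPM in KO hearts, 11.7, 13.6, 12.9 and 14.2 CPM in WT/GFP and 8.38, 10.4, 13.9 and 4.90 CPM in KO/GFP. With aYAP they were 17.5, 13.3, 14.8 and 7.88 CPM in WT and 12.9, 14.3, 14.6 and 14.5 CPM in KO hearts, the latter within 1 narrow range at the level of WT/GFP. *Pole*, the catalytic subunit of the leading-strand polymerase epsilon, had the most negative change of the 37 genes in uninjected hearts together with *Cdc6*, -1.58, and was not called (adjusted p = 0.0741). Its KO replicate 4 stood at 25.8 CPM against 4.45 to 5.68 CPM in the other 3. Without that library it was -2.13 (adjusted p = 1.4e-04). *Prim2*, *Pold1* and *Pola2* had smaller changes, -0.57, -0.54 and -0.17 in uninjected and -0.36, -0.37 and -0.39 in KO/GFP hearts. No gene of this group was called in either comparison of injected hearts in limma as reported. DESeq2, and limma with the replicate block, called *Prim1* in KO/GFP hearts. Without KO/GFP replicate 3, limma called *Pola1*, *Pola2*, *Pold1*, *Pole* and *Prim1* in KO/GFP hearts and *Pola1* and *Pole* with aYAP.

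Clamp and clamp loader. *Rfc4* (ENSMUSG00000022881, chromosome 16, 23113943 to 23127737), a small subunit of the loader, was at 12.1, 11.6, 11.4 and 10.9 CPM in uninjected WT and 8.70, 5.90, 5.44 and 7.68 CPM in KO hearts, without overlap (log2 fold change -0.67, SE 0.15, adjusted p = 0.0311). In injected hearts it measured 14.6, 14.6, 18.0 and 14.2 CPM in WT/GFP and 6.70, 10.5, 11.9 and 5.89 CPM in KO/GFP, again without overlap (log2 fold change -0.79, SE 0.18, adjusted p = 0.00682). It measured 14.4, 18.1, 16.3 and 13.3 CPM in WT/aYAP and 11.7, 13.6, 12.2 and 14.3 CPM in KO/aYAP, higher than KO/GFP (log2 fold change 0.56, SE 0.18, adjusted p = 0.0406), where 1 KO/aYAP library lay within the KO/GFP range. *Rfc4* and *Rrm2* were the only members called in all 3 comparisons as reported. Of these calls, edgeR's quasi-likelihood test did not make that of *Rrm2* in uninjected hearts (adjusted p = 0.107) or that of *Rfc4* with aYAP (adjusted p = 0.0602), and with the replicate block neither was called in uninjected hearts (adjusted p = 0.0906 and 0.0866). The call of *Rrm2* in uninjected hearts was also lost without the trend (adjusted p = 0.0508) and with a pseudocount of 0.1 (adjusted p = 0.0538) in limma. With only the libraries of the 2 groups, limma did not call *Rfc4* in KO/GFP hearts (adjusted p = 0.0533). In such fits neither *Rfc4* (adjusted p = 0.125) nor *Rrm2* (adjusted p = 0.0774) was called with aYAP. Leaving out 1 library also removed calls, as given above for uninjected hearts. *Pcna*, the clamp itself, fell to 65.4% of WT/GFP in KO/GFP hearts (68.3 ± 18.2 CPM against 104 ± 9.34 CPM, SD, n = 4, adjusted p = 0.00853) and stood at 92.4 ± 7.29 CPM in KO/aYAP hearts (adjusted p = 0.0417 against KO/GFP). A processed pseudogene, *Pcna-ps2*, is listed too and may share reads with it.

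Of the other loader subunits none was called with all libraries. *Rfc1*, the large subunit, was at 50.8, 48.1, 47.7 and 48.0 CPM in uninjected WT and 36.2, 39.7, 41.8 and 49.8 CPM in KO hearts (log2 fold change -0.22, SE 0.11, adjusted p = 0.284). It measured 38.4, 31.8, 33.6 and 36.3 CPM in WT/GFP, 40.3, 32.8, 40.8 and 44.8 CPM in KO/GFP, 46.3, 41.2, 41.9 and 35.3 CPM in WT/aYAP and 35.2, 33.0, 40.4 and 35.8 CPM in KO/aYAP. *Rfc1* was thus on the low side of WT in 1 set and on the high side in the other (0.17 in KO/GFP), with overlap in both. *Rfc2* was at 41.6, 41.1, 39.2 and 39.4 CPM in uninjected WT and 47.4, 32.7, 33.5 and 39.6 CPM in KO hearts, 40.8, 35.2, 41.0 and 38.8 CPM in WT/GFP and 33.8, 38.6, 36.5 and 27.7 CPM in KO/GFP. With aYAP it measured 41.1, 36.4, 40.1 and 35.0 CPM in WT and 34.0, 30.0, 37.8 and 33.9 CPM in KO hearts, and no pair of these groups was apart. *Rfc3* and *Rfc5* had changes of -0.25 and -0.57 in uninjected and -0.38 and -0.15 in KO/GFP hearts. Without KO replicate 4, *Rfc5* was called lower in uninjected KO hearts (-0.76, adjusted p = 0.00827). *Rfc5* shares 499 bases with *Wsb2* on the opposite strand.

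Single-strand DNA binding. *Rpa3* had the smallest p of the 3 subunits in uninjected hearts, at 10.6, 8.61, 10.6 and 9.27 CPM in WT and 9.13, 5.76, 5.39 and 6.41 CPM in KO (log2 fold change -0.51, SE 0.16, adjusted p = 0.0970), with KO replicate 1 in the WT range. Its injected values were 14.9, 15.7, 16.1 and 14.6 CPM in WT/GFP, 9.0, 19.4, 8.54 and 10.9 CPM in KO/GFP, 16.6, 14.4, 12.2 and 15.7 CPM in WT/aYAP and 13.5, 11.4, 13.7 and 16.6 CPM in KO/aYAP. KO/GFP replicate 2 was the highest of all 16, and the other 3 KO/GFP libraries were the lowest of the GFP groups. *Rpa2*, with the smallest p in KO/GFP hearts (log2 fold change -0.42, SE 0.15, adjusted p = 0.0740), was at 24.1, 22.4, 22.9 and 24.6 CPM in WT/GFP and 17.4, 15.2, 23.9 and 13.9 CPM in KO/GFP. It measured 20.4, 24.2, 25.4 and 23.0 CPM in WT/aYAP and 17.5, 20.7, 27.6 and 21.7 CPM in KO/aYAP, and at 20.6, 19.2, 19.1 and 22.1 CPM in uninjected WT and 20.8, 12.7, 15.4 and 19.1 CPM in KO hearts. Neither gene was called in any comparison with all libraries. Without KO/GFP replicate 2, *Rpa3* was called lower in KO/GFP (-0.65) and higher in KO/aYAP than in KO/GFP hearts (0.49), and without uninjected KO replicate 1 it was called lower there (-0.65). Without KO/GFP replicate 3, *Rpa2* was called in both injected comparisons (-0.57 and 0.46). *Rpa1*, the large subunit, had another pattern (ENSMUSG00000000751, chromosome 11, 75298166 to 75348324). It measured 88.2, 54.8, 52.9 and 50.8 CPM in uninjected WT and 82.0, 42.5, 43.0 and 81.2 CPM in KO hearts, with WT replicate 1 and KO replicates 1 and 4 well above the others. In injected hearts it measured 45.7, 48.7, 43.0 and 49.9 CPM in WT/GFP and 36.8, 24.8, 45.3 and 66.9 CPM in KO/GFP, where the KO libraries ran from below to above WT. With aYAP it measured 45.7, 76.8, 45.3 and 63.4 CPM in WT and 48.7, 86.6, 83.6 and 82.2 CPM in KO hearts, so 3 KO/aYAP libraries were above every KO/GFP and WT/GFP library and 1 was not. Its rise over KO/GFP was called (log2 fold change 0.83, SE 0.25, adjusted p = 0.0337) while its change in KO/GFP hearts was -0.19 (adjusted p = 0.666). The rise was no longer called without KO/GFP replicate 1 or 2, or without KO/aYAP replicate 2, 3 or 4.

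Okazaki fragment maturation. *Fen1*, a flap endonuclease, was at 17.4, 18.6, 16 and 16.9 CPM in uninjected WT and 12.1, 8.27, 8.79 and 14.5 CPM in KO hearts, without overlap (log2 fold change -0.64, SE 0.17, adjusted p = 0.0586). In injected hearts it measured 19.6, 18.7, 8.81 and 18.3 CPM in WT/GFP, 12.9, 12.6, 20.5 and 6.39 CPM in KO/GFP, 15.0, 4.4, 19.6 and 21.7 CPM in WT/aYAP and 16.1, 17.6, 17.3 and 16.6 CPM in KO/aYAP. WT/GFP replicate 3 and WT/aYAP replicate 2 were far below their groups, and the change in KO/GFP hearts was -0.34 with an SE of 0.39. *Fen1* shares 1909 bases with the antisense gene *Gm10143*. *Lig1* (ENSMUSG00000056394, chromosome 7, 13277283 to 13311433), the replicative DNA ligase, was at 33.3, 31.8, 31.7 and 32.7 CPM in uninjected WT and 13.4, 9.49, 7.99 and 30.5 CPM in KO hearts, without overlap although replicate 4 was near WT (log2 fold change -1.21, SE 0.34, adjusted p = 0.0647). It measured 38.0, 35.7, 41.3 and 38.0 CPM in WT/GFP and 20.2, 28.3, 36.6 and 8.81 CPM in KO/GFP (log2 fold change -0.84, SE 0.27, adjusted p = 0.0499). With aYAP it measured 43.5, 39.9, 35.0 and 33.5 CPM in WT and 33.2, 35.1, 35.6 and 29.6 CPM in KO hearts (log2 fold change 0.65, SE 0.27, adjusted p = 0.121 against KO/GFP, not called). *Lig1* was called lower in KO/GFP by a small margin, and without KO/GFP replicate 4 it was not (adjusted p = 0.0801). With all libraries it was not called there by DESeq2, by either edgeR test, or by limma without the trend or with a pseudocount of 0.1.

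Nucleotide supply. RRM1 and RRM2 form ribonucleotide reductase, which makes deoxynucleotides. *Rrm2* (ENSMUSG00000020649, chromosome 12, 24708241 to 24714146), the subunit whose level follows S phase, was at 66.1, 59.7, 53.8 and 46.1 CPM in uninjected WT and 15.2, 15.5, 9.59 and 47.3 CPM in KO hearts. KO replicates 1 to 3 were below every WT library and replicate 4 was inside the WT range (log2 fold change -1.57, SE 0.40, adjusted p = 0.0494). In injected hearts it measured 84.3, 99.9, 86.0 and 93.4 CPM in WT/GFP and 30.2, 38.9, 65.7 and 14.5 CPM in KO/GFP, without overlap, at 41.1% of the WT/GFP mean (log2 fold change -1.44, SE 0.28, adjusted p = 0.00322). It measured 91.1, 122, 90.5 and 82.9 CPM in WT/aYAP and 64.7, 73.3, 75.2 and 74.3 CPM in KO/aYAP. The KO/aYAP libraries lay close together, above 3 of 4 KO/GFP libraries (log2 fold change 1.11, SE 0.28, adjusted p = 0.0150), and below every WT library of the injected set. *Rrm1* (ENSMUSG00000030978, chromosome 7, 102441695 to 102469771), the large subunit, was at 94.3, 92.5, 81.6 and 77.8 CPM in uninjected WT and 41.1, 38.4, 33.1 and 88.8 CPM in KO hearts (log2 fold change -0.88, SE 0.27, adjusted p = 0.0880). It measured 78.2, 80.3, 83.2 and 89.3 CPM in WT/GFP and 40.6, 48.4, 69.6 and 31.5 CPM in KO/GFP, without overlap, with the smallest p of the 37 genes in that comparison (log2 fold change -0.84, SE 0.16, adjusted p = 0.00309). With aYAP it measured 94.8, 85.7, 79.0 and 71.5 CPM in WT and 74.4, 73.9, 69.5 and 70.3 CPM in KO hearts (log2 fold change 0.65, SE 0.16, adjusted p = 0.0144 against KO/GFP). KO/aYAP replicate 3 was just below KO/GFP replicate 3, and the other 3 KO/GFP libraries were far below all KO/aYAP libraries.

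Thymidylate can be made by thymidylate synthase (*Tyms*) or by thymidine kinase (*Tk1*). *Tyms* had changes of -0.76, -0.19 and 0.05 and *Tk1* of -0.86, -0.49 and 0.25 in the 3 comparisons, none called with all libraries. *Tyms* was at 5.21, 14.2, 9.30 and 5.34 CPM in KO/GFP against 10.1, 8.37, 9.51 and 8.60 CPM in WT/GFP hearts, with replicate 2 above all WT/GFP libraries. *Tk1* was at 18.0, 24.8, 23.4 and 9.86 CPM against 25.3, 24.2, 25.6 and 27.5 CPM, and at 20.5, 21.6, 23.6 and 20.8 CPM in KO/aYAP hearts.

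Levels between genes were compared per kilobase of the principal transcript, which GENCODE marks for 33 of the 37 genes. In uninjected WT hearts *Pcna* was highest at 45.9 ± 1.73 CPM per kb (SD, n = 4), then *Rrm2* at 25.7 ± 3.88, *Mcm6* at 22.0 ± 1.32 and *Rrm1* at 21.7 ± 2.03 CPM per kb, and neighbours among these last 3 differed by less than the larger SD. The lowest were *Orc1* at 0.576 ± 0.12, *Mcm10* at 1.35 ± 0.0388 and *Gins3* at 1.66 ± 0.211 CPM per kb. In WT/GFP hearts *Pcna* was at 68.8 ± 6.16, *Rrm2* at 41.4 ± 3.28 and *Mcm6* at 21.2 ± 1.36 CPM per kb. In KO/GFP hearts *Pcna* was at 45.0 ± 12.0, *Rrm2* at 17.0 ± 9.77 and *Mcm6* at 12.8 ± 6.11 CPM per kb, and in KO/aYAP hearts at 60.9 ± 4.80, 32.8 ± 2.21 and 18.1 ± 2.74 CPM per kb in the same order. The 5 measured MCM subunits other than *Mcm6* were at 11.5 ± 0.622 (*Mcm4*) to 20.0 ± 1.19 (*Mcm2*) CPM per kb in uninjected WT hearts.

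Other genes of the pathway were taken from lists made by function. Of 37 further replication fork genes tested, 34 were negative in uninjected KO hearts and 7 fell (median -0.46), 30 were negative in KO/GFP hearts and 13 fell (median -0.38), and 1 rose in KO/aYAP against KO/GFP hearts (median 0.26). For these and the next lists, 3.46%, 7.22% and 7.85% of all genes were called in these directions, so the 1 fork gene that rose was below that share. The smallest p-values in uninjected hearts were those of *Dscc1* (-1.27, adjusted p = 0.0198), *Pole2* (-1.17, adjusted p = 0.0234), *Chaf1a* (-1.20, adjusted p = 0.0314) and *Wdhd1* (-1.20, adjusted p = 0.0461), which act in clamp loading, polymerase epsilon, chromatin assembly and fork progression. In KO/GFP hearts they were those of *Cdc7*, the kinase that fires origins (-0.96, adjusted p = 0.0157), *Asf1b* (-1.12, adjusted p = 0.0159), *Dnmt1* (-0.55, adjusted p = 0.0210) and *Chaf1a* (-0.74, adjusted p = 0.0222), and *Pole2* was the gene that rose with aYAP (0.76, adjusted p = 0.0400). Among 28 other nucleotide synthesis genes, in KO/GFP hearts *Dck* (-0.79, adjusted p = 0.00866), *Dtymk* (-0.46, adjusted p = 0.0215) and *Ppat* (-0.59, adjusted p = 0.0450) fell, and *Dck* (0.78, adjusted p = 0.00867) and *Ppat* (0.72, adjusted p = 0.0159) rose with aYAP. These 3 and 2 of 28 (10.7% and 7.14%) were near the shares of all genes. The medians of this list were -0.13, -0.11 and 0.08. The 4 genes of deoxynucleotide supply outside S phase (*Rrm2b*, *Tk2*, *Dguok*, *Samhd1*) had none called, with medians of 0.02, 0.04 and -0.12. Of 19 mitosis genes all were negative in both KO comparisons, with medians of -1.42 and -1.30, and all positive with aYAP, with a median of 1.10. For them 0 passed the adjusted threshold in uninjected hearts (18 at an unadjusted p under 0.05), 18 fell in KO/GFP hearts and 13 rose in KO/aYAP against KO/GFP hearts, among them *Cenpf* (0.95, adjusted p = 0.00673), *Bub1* (1.12, adjusted p = 0.00679) and *Ccnb1* (1.39, adjusted p = 0.00710), all from limma.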

How the data were processed

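RNA was sequenced from 24 mouse heart samples, 8 uninjected and 16 injected. Per the labels and the submitters' processing notes, the authors trimmed reads with cutadapt 2.3, checked them with FastQC, aligned them to GRCm38 with HISAT2 2.1.0, assembled transcripts with StringTie 1.3.4 and scaled counts with edgeR 3.26.1. The deposited values are called CPM here. They are a signal made by the authors from gene counts and scale factors, since the columns sum to 942566 to 1134439. Whole reads were recovered from their steps for at least 99.9478% of values (tolerance 0.05 reads), and their sums gave 15015038 to 31154155 reads per sample. 

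Gene IDs were paired with symbols by the GENCODE annotation of GRCm38. Genes over 1 CPM in at least 4 (uninjected) or 8 (injected) samples were tested, 15598 and 14597, and all 37 members were among them. Of these, 35 and 36 were above 1 CPM in every sample, the others being *Orc1* in both sets and *Cdc6* in the uninjected set. log2(CPM + 1) was fitted with limma 3.58.1 (R 4.3.3) with a mean-variance trend, 1 fit per set over all its groups, and p-values were adjusted by Benjamini-Hochberg over all genes tested. Fold changes on this scale understate the change of low genes. Nothing in the labels says which samples share a litter, so litter was not fitted. The p-values set each difference against the spread between samples within groups, estimated over all groups of a set. None of the 36 pairs of samples within a group agreed within sampling noise. Confidence intervals are at 95%.

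Members and lists were chosen with earlier results of these data known. For the named genes, per-sample values were given for the gene of each role with the smallest p in the uninjected, KO/GFP and KO/aYAP comparisons and, where a role held them, for genes that moved against the rest, and up to 4 genes per other list and comparison by smallest p, except that 1 gene of the nucleotide synthesis list is not reported here. *Mcm5*, *Mcm6*, *Pcna*, *Pole*, *Tyms* and *Tk1* were added after their values were seen. Lists besides the members were replication fork, nucleotide synthesis, deoxynucleotide supply outside S phase and mitosis genes and markers of cardiomyocytes, endothelium, fibroblasts, smooth muscle and pericytes, macrophages and other leukocytes, neutrophils, lymphocytes and erythroid cells. Of lymphocyte markers 1 was tested in uninjected hearts, where it fell, and none in injected hearts.

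Alternatives were edgeR 4.0.16 (quasi-likelihood and exact tests) and DESeq2 1.42.0 on the recovered reads, median-ratio scaling, quantile normalisation, a pseudocount of 0.1, other filters, no trend, fits to 2 groups alone, a replicate block and leaving out each sample. Test scripts were checked on simulated counts with the same dispersion for all genes and no library that stood apart, unlike the KO groups here. Promoter windows came from RefSeq tables of GRCm38.p6. Exons of 12 members overlap an exon on the opposite strand. The study describes its libraries as strand-specific, and use of strand in counting is not given in the sources used here. Reads on mouse *Yap1* were not used as a measure of the human transgene, and whether transgene reads align there was not tested.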

Additional observations from a re-analysis of the deposited data

Results flagged for a closer look

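In 23 of 222 groups of 4 libraries (37 genes in 6 groups), the highest or lowest library lay farther from its nearest neighbour, relative to the group's whole range, than Dixon's 95% value allows. Chance flags about 1 in 20 groups, or 11.1 of 222, and the 37 genes share their libraries. Uninjected KO replicate 4 was the high library for 10 of the 23. Its values were *Orc1* 1.6 CPM, *Cdc6* 3.21 CPM, *Cdt1* 15.2 CPM, *Mcm4* 38.1 CPM, *Mcm10* 7.73 CPM, *Pola1* 17.7 CPM, *Prim2* 9.0 CPM, *Pole* 25.8 CPM, *Rrm1* 88.8 CPM and *Rrm2* 47.3 CPM. In the other 3 uninjected KO libraries *Mcm10* was at 1.19 to 1.26 CPM and *Rrm2* at 9.59 to 15.5 CPM. Among uninjected WT libraries, replicate 1 was high for *Mcm6* (69.8 CPM), *Rfc1* (50.8 CPM) and *Rpa1* (88.2 CPM), replicate 2 low for *Gins2* (22.8 CPM), and replicate 3 high for *Rfc5* (14.7 CPM) and low for *Tk1* (23.7 CPM). WT/GFP replicate 3 was high for *Rfc4* (18.0 CPM) and low for *Fen1* (8.81 CPM), and WT/aYAP replicate 1 was low for *Cdt1* (17.9 CPM). In KO/aYAP hearts replicate 1 was low for *Rpa1* (48.7 CPM), replicate 2 high for *Gins2* (31.7 CPM), replicate 3 high for *Orc6* (13.9 CPM) and replicate 4 low for *Cdc6* (3.32 CPM). The cause of these values was not tested.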

How the results depend on the processing

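The median change of the 37 genes kept its sign under each alternative in every comparison but WT/aYAP against WT/GFP, where it ran from -0.02 to 0.08 with 1 library left out. Counts of genes called moved more. In uninjected KO against WT hearts 4 genes were called as reported, 2 by edgeR's quasi-likelihood test, 11 by its exact test, 13 by DESeq2, 1 with the replicate block, and 0 to 27 with 1 library left out. Of all genes 3.46% were called lower as reported and 2.81%, 4.81%, 6.14% and 1.18% by these fits in the same order. With 1 library left out this share ran from 0.914% to 7.96%. In KO/GFP against WT/GFP hearts 13 were called as reported, 3 with only the libraries of the 2 groups, and 8 to 23 with 1 library left out. All-gene shares called lower in these fits were 7.22%, 2.95% and 4.55% to 10.1%. In KO/aYAP against KO/GFP hearts 9 were called as reported, 4 by quasi-likelihood, 0 with only the libraries of the 2 groups, and 2 to 18 with 1 library left out. The shares of all genes called higher were 7.85%, 7.08%, 4.08% and 5.38% to 9.34% in the same order. The interaction gave 0 as reported (7.56% of all genes) and 0 to 7 with 1 library left out (4.31% to 10.1% of all genes). The replicate numbers did not pair the samples (median correlation of same-numbered deviations -0.01 over 24 pairs of injected and -0.11 over 4 pairs of uninjected samples), and with the block 14 and 9 genes were called in the KO/GFP and KO/aYAP comparisons. With the block, 6.23% of all genes were called lower in the first of these comparisons and 6.74% higher in the second. Over all genes in uninjected hearts, in either direction, edgeR's quasi-likelihood test called 956, its exact test 1514 and DESeq2 1951, against 1044 in limma.

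The signs that reversed belonged to genes not called, among them *Gins2* in uninjected hearts (-0.65 as reported) and *Tk1* in KO/aYAP against KO/GFP hearts (0.25 as reported). In uninjected KO hearts *Rpa1* was 0.011 by both edgeR tests and 0.020 by DESeq2, and with 1 library left out *Rpa1* ran from -0.18 to 0.16, *Gins4* from -0.069 to 0.069 and *Gins2* from -1.02 to 0.29. In KO/GFP hearts, with 1 library left out, *Gins2* ran from -0.16 to 0.040, *Rpa1* from -0.42 to 0.041, *Gins4* from -0.10 to 0.12 and *Orc6* from -0.37 to 0.055. In KO/aYAP against KO/GFP hearts *Tyms* was -0.053 by both edgeR tests and -0.048 by DESeq2, and *Rfc5* -0.0028 by quasi-likelihood and -0.0025 by the exact test. With 1 library left out, *Tyms* ran from -0.12 to 0.31, *Rfc5* from -0.070 to 0.12, *Rfc2* from -0.099 to 0.056, *Orc6* from -0.23 to 0.20, *Tk1* from -0.019 to 0.40, *Gins1* from -0.031 to 0.29 and *Gins4* from -0.039 to 0.18. The cause was not tested. With 4 libraries a group, the 95% interval limits what can be read for genes not called, and the lowest genes, such as *Orc1*, rest on few reads.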
